A study of Mus musculus with 54 samples.

Results

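The CTCF peaks of WT testis that carried BORIS and still had a CTCF peak in the compound mutant (CM) numbered 4285 of 34625 WT CTCF peaks, and are called kept CTCF/BORIS peaks here. A WT CTCF peak was a member when it overlapped by at least 1 bp a peak of the WT BORIS list and a peak of the CM CTCF list. The 1789 CTCF/BORIS peaks without a CM CTCF peak are called lost, and the 15142 WT CTCF peaks with a CM peak and no BORIS peak are called kept CTCF-only peaks. Members were thus chosen by the WT CTCF, WT BORIS and CM CTCF peak heights that put a peak in each list, and these heights are described below and not tested.

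All mice were C57BL/6, 3 months old, and chromatin and whole testis RNA came from germ cell-enriched testis preparations in which 4 mice were pooled. Round spermatids were isolated by elutriation and flow sorting, and their libraries were made from poly(A) RNA on the Illumina platform, whereas whole testis libraries were made from rRNA-depleted RNA on the Ion Proton platform. WT mice carry both genes intact, CTCF HET mice lack 1 copy of *Ctcf*, BORIS KO mice lack *Boris* (annotated as *Ctcfl*), and CM mice (DKO in the labels) have 1 copy of *Ctcf* and no *Boris*. CTCF was precipitated from WT and CM with a mix of commercial antibodies to its C-terminus, and BORIS from WT with a custom rabbit polyclonal antibody, in 2 samples each. Pol2 was mapped in 2 samples and H3K4me3 in 1 sample each of WT and CM. The files give a single pooled list for an antibody in a genotype, and how 2 samples became 1 list is not stated. No value for a peak therefore has a replicate error, and no difference or ratio of heights between lists was taken. Heights of different lists were related only by rank correlations, percentiles and classes or bins of WT height. All intervals below are Wilson 95% confidence intervals and cover counting error only, and peaks close together on a chromosome may share their signal.

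CTCF is a DNA-binding protein with an array of zinc fingers that, together with the cohesin ring, holds chromatin loops and insulates regulatory domains. BORIS is its testis-specific paralog. It arose by gene duplication, keeps nearly the same zinc fingers and reads the same core DNA motif, while its termini differ from those of CTCF. In male germ cells both proteins are present, so that sites with several motifs next to each other can be bound by both at once. H3K4me3 marks active or poised promoters, and Pol2 marks transcribed genes.

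The sequences of members that hold the motif show how it is arranged, and they were picked for holding a match. The sequences below are from mm9 and run 5′ to 3′ on the strand on which the motif reads forward, with the 19-bp motif matches found by the scan in capitals and 20 bases shown on each side. They are the named regions outside UTRs that hold a match, ordered by WT CTCF height, and lie at chr5:117955326-117955441 (plus strand, intron of *Ksr2*), chr12:78882536-78882594 (minus strand, between genes), chr2:172922869-172923087 (minus strand, intron of *Ctcfl*), chr15:99247158-99247216 (minus strand, between genes, nearest start *Nckap5l*), chr12:110781226-110781284 (minus strand, exon of *Meg3*), chr10:79840637-79840695 (minus strand, between genes, nearest start *Mex3d*) and chr7:6680230-6680288 (minus strand, intron of *Peg3*).
Ksr2: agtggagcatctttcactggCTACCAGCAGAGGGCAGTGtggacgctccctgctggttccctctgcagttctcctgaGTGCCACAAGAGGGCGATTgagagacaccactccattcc
chromosome 12 site: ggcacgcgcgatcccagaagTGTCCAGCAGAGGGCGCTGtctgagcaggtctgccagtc
Ctcfl: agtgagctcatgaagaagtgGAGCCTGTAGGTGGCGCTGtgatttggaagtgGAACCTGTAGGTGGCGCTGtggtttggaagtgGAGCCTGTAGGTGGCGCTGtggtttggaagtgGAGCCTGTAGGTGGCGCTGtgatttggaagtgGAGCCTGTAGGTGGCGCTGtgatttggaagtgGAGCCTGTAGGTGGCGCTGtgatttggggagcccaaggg
Nckap5l: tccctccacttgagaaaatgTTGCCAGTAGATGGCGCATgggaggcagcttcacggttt
Meg3: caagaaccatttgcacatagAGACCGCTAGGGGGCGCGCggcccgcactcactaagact
Mex3d: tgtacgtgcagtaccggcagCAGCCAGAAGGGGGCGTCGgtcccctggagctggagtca
Peg3: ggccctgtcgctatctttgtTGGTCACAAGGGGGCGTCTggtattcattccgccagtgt

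The site inside *Ctcfl* held 6 matches, all on the same strand and each 32 bp from the next, and 5 of the 6 matches had the same 19 letters. The *Ksr2* site held 2 matches 57 bp apart on 1 strand. Among the members, 9 held 3 or more matches within 100 bp of the summit, and those that lie off UTRs are shown to give the form of such arrays, a choice made after their values were seen. They lie at chr5:116566651-116566837 (plus strand, between genes), chr9:121606753-121606946 (plus strand, intron of *Sec22c*), chr13:111158912-111159117 (minus strand, between genes) and chr5:144098373-144098515 (plus strand, between genes).
chromosome 5 site near C330018A13Rik: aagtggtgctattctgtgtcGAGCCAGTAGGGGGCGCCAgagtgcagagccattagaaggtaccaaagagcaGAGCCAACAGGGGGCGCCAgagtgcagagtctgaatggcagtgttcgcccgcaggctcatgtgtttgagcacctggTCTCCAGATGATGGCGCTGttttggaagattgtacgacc
Sec22c: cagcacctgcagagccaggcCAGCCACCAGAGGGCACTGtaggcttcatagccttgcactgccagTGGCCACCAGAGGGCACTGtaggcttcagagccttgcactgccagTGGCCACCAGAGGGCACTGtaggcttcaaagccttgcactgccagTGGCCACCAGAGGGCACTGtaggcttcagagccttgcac
chromosome 13 site near Gapt: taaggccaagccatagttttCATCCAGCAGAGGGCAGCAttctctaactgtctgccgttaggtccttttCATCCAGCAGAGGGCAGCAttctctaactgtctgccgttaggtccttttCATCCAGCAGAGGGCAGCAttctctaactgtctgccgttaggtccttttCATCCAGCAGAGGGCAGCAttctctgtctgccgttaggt
chromosome 5 site near 0610040B10Rik: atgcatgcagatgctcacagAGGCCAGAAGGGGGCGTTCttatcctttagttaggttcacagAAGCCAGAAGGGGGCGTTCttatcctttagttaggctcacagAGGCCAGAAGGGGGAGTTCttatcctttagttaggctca

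At these sites the matches also lay on 1 strand, 45 bp apart in *Sec22c*, 49 bp apart at the site near *Gapt* and 42 bp apart at the site near *0610040B10Rik*. For comparison, the 2 highest lost CTCF/BORIS peaks with a match outside UTRs (chr6:145296863-145296921, minus strand, between genes, WT height 2990, and chr17:72043279-72043337, plus strand, in *Fam179a*, WT height 2824) and the highest kept CTCF-only peak with a match outside UTRs (chr11:22517746-22517804, minus strand, at the promoter of *Gm12052*, WT height 4298) are given, each with 1 match.
lost site on chromosome 6: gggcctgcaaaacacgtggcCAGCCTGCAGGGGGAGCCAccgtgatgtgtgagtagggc
lost site in Fam179a: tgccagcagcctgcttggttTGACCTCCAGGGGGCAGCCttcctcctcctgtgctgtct
kept CTCF-only site at Gm12052: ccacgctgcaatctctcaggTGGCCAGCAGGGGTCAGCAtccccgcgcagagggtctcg

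Members were among the highest CTCF peaks of WT testis, a property that the rule favours. Their median WT CTCF height was 2430 (102 to 4391), at the 88.6th percentile of the WT list, and 3210 of the 4285 (74.9%) lay in the highest of 4 equal classes of WT height, above 1379. Lost CTCF/BORIS peaks had a median height of 391 and kept CTCF-only peaks 902. In the other lists the members stood closer to the middle. The median BORIS height at members was 101 (16 to 2052), at the 58.9th percentile of the BORIS list, and the median CM CTCF height was 430 (100 to 968), at the 67.9th percentile of the CM list. Both CTCF lists end at a height of 100 and the BORIS list at 15.

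The edges of the rule held few members. The smallest overlap of a member with a BORIS peak was 48 bp and with a CM CTCF peak 65 bp. Only 51 members had a CM height of 110 or less, and 17 had a BORIS height of 20 or less. On the other side, 3 lost CTCF/BORIS peaks had a CM CTCF peak within 100 bp and 97 had one within 1 kb, the closest 25 bp away and the median 18272 bp. Most members, 4175, lay under exactly 1 BORIS peak, and 110 carried 2 or 3.

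Across the 4285 members, the WT and CM heights had a Spearman rho of 0.49, the WT and BORIS heights 0.36 and the CM and BORIS heights 0.12. The points of these correlations come from the same pooled preparations, and no p is given. At kept CTCF-only peaks the rho of WT and CM heights was 0.56. In the 4 height classes, from the lowest to the highest, the median CM height was 163, 234, 349 and 469 at members and 175, 222, 328 and 461 at kept CTCF-only peaks. Between WT heights of 1250 and 4000 the median CM height of the members was below that of the kept CTCF-only peaks in every bin of 250, as with 395 against 444 between 2250 and 2500. It was above in the bins from 250 (246 against 230), 500 (304 against 279), 1000 (393 against 367) and 4000 (703 against 694), so the range of bins was read from the values. The interquartile ranges of the members and the kept CTCF-only peaks overlapped in each bin between 1250 and 4000.

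**Figure D1:**
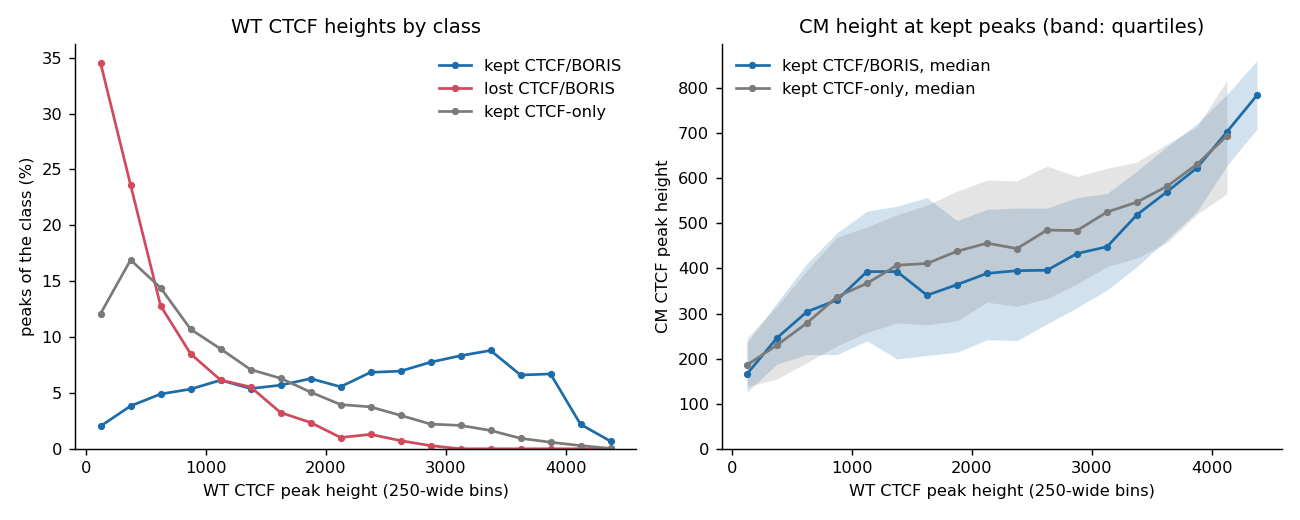
Left, the share of peaks (%) of each class per 250-wide bin of WT CTCF height; right, the CM CTCF height by WT CTCF height at the kept peaks of both kinds, with medians as lines and quartiles as bands. The members (blue) are most frequent between 3250 and 3500 (377 peaks), where no lost CTCF/BORIS peak (red) and 248 of the 15142 kept CTCF-only peaks (grey) lie, and the CM heights of both kept classes rise together with the WT height.

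CTCF and BORIS summits lay close together at most members. The BORIS summit lay a median of 19 bp from the WT CTCF summit, and within 50 bp of it at 3785 members (88.3%). The CM CTCF summit lay a median of 14 bp away and within 50 bp at 4011 members (93.6%). At 154 members (3.59%) the BORIS summit was more than 100 bp from the CTCF summit.

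The 3107 members with exactly 1 motif match allowed the summits to be placed along the motif. Measured along the strand of the match, CM CTCF summits had a median offset of -9.00 bp from its centre, with quartiles of -17.0 and -1.0 bp. WT CTCF summits were spread more widely, with a median of -4.00 bp and quartiles of -16.0 and 11.0 bp, and BORIS summits lay on the other side, with a median of 3.00 bp and quartiles of -11.0 and 16.0 bp. Within 20 bp of the centre lay 83.1% of the CM CTCF summits, 69.9% of the WT CTCF summits and 67.0% of the BORIS summits. The summits chose the window that was searched for the motif in the case of WT CTCF only, and heights and summits of a list share its peak caller, so these values are given without a test.

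**Figure D2:**
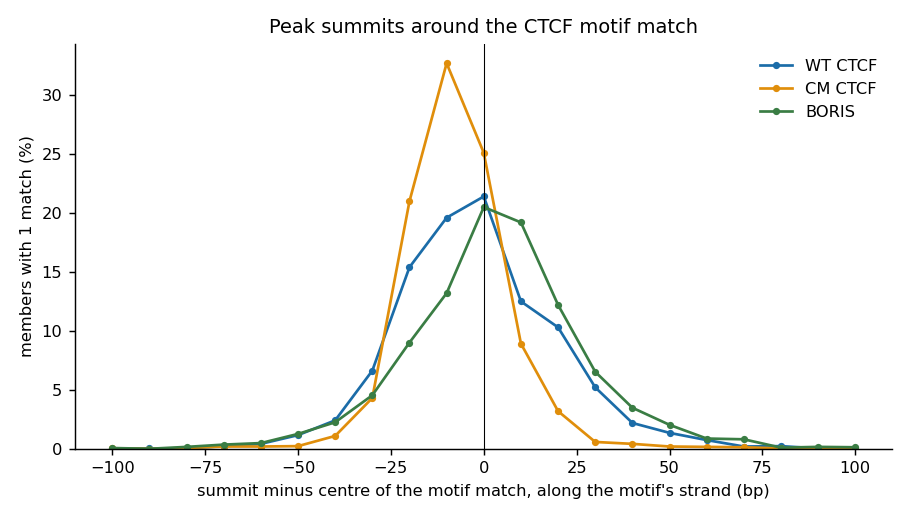
Share (%) of the 3107 members with 1 motif match whose summit fell in each 10-bp bin around the centre of the match, along the strand of the motif, for the WT CTCF, CM CTCF and BORIS peaks. CM CTCF summits are the narrowest and sit at negative offsets (quartiles -17.0 to -1.0 bp), BORIS summits extend to positive offsets (-11.0 to 16.0 bp), and WT CTCF summits lie between them.

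Chromatin marks, position and sequence were not used by the rule, and 6 such features were compared between the members and each of the 2 other classes, which makes 12 tests (Fisher's exact test, two-sided, Benjamini-Hochberg adjusted over the 12). In 5 of the features the members stood between the other classes: they were marked by H3K4me3 and Pol2, placed at promoters and rich in GC more often than kept CTCF-only peaks and less often than lost CTCF/BORIS peaks, and they held a CTCF motif match far more often than the lost ones.

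WT H3K4me3 peaks overlapped 990 of 4285 members (23.1%, 21.9 to 24.4), 48.6% of the lost CTCF/BORIS peaks (46.3 to 50.9) and 4.15% of the kept CTCF-only peaks (3.84 to 4.48). The odds of a mark were 0.318 times those of the lost peaks (adjusted exact p = 1.86e-82) and 6.94 times those of the kept CTCF-only peaks (adjusted exact p = 1.11e-279). WT Pol2 peaks overlapped 699 members (16.3%, 15.2 to 17.4), against 38.2% of the lost and 4.56% of the kept CTCF-only peaks, with odds ratios of 0.316 (adjusted exact p = 4.59e-72) and 4.08 (adjusted exact p = 5.97e-128). Both marks were found at 592 members (13.8%).

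Of the members, 1187 (27.7%, 26.4 to 29.1) had their summit within 1 kb of an annotated transcription start, 1335 (31.2%) lay elsewhere in a gene and 1763 (41.1%) lay between genes. The promoter share was 60.3% among lost CTCF/BORIS peaks (odds ratio 0.252, adjusted exact p = 2.85e-124) and 6.80% among kept CTCF-only peaks (odds ratio 5.26, adjusted exact p = 2.45e-265). In each class H3K4me3 and Pol2 peaks were more frequent at promoters than away from them. At promoters 60.3% of the members had a WT H3K4me3 peak, and away from promoters 8.84% did. The corresponding shares were 72.8 and 11.7% for lost CTCF/BORIS peaks, and 22.8 and 2.78% for kept CTCF-only peaks. The median GC content within 100 bp of the summit was 55.7% at members, 64.2% at lost CTCF/BORIS peaks and 47.8% at kept CTCF-only peaks, with medians of 6.00, 14.0 and 2.00 CpG. A GC content above the median of all WT CTCF peaks was found at 65.4% of the members, 91.6% of the lost CTCF/BORIS peaks (odds ratio 0.173, adjusted exact p = 1.06e-112) and 21.9% of the kept CTCF-only peaks (odds ratio 6.74, with a p below the smallest that the computation can hold).

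**Figure D3:**
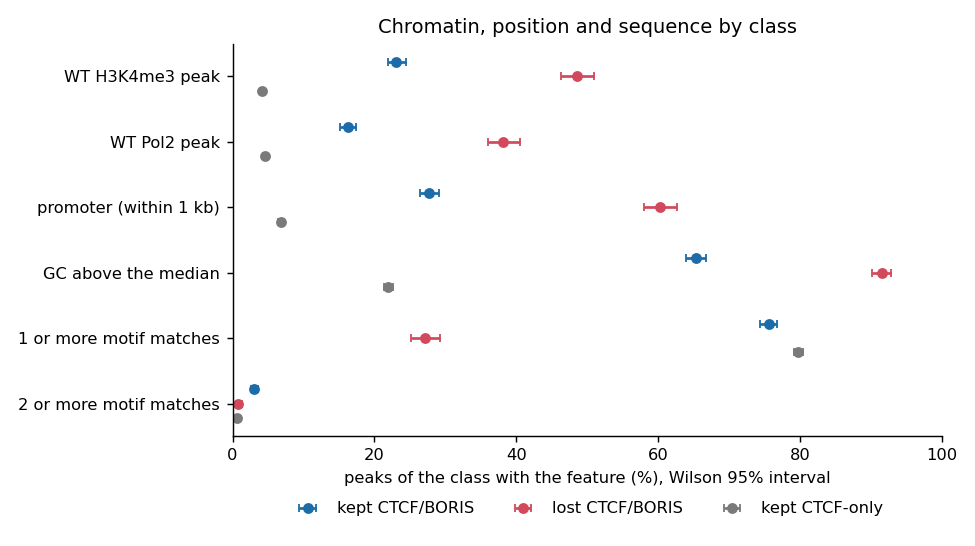
Share (%) of the peaks of each class with each of 6 features, with Wilson 95% intervals as bars. The members (blue) lie between the lost CTCF/BORIS peaks (red) and the kept CTCF-only peaks (grey) for H3K4me3 (23.1%), Pol2, promoters (27.7%) and GC content, near the kept CTCF-only peaks for 1 or more motif matches (75.6 and 79.7%), and highest for 2 or more (3.06%).

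In CM testis most of the WT marks at members were listed again, as over all WT CTCF peaks. A CM H3K4me3 peak overlapped 1099 members (25.6%), of which 861 had one in both lists, 238 in the CM list alone and 129 in the WT list alone. For Pol2 the CM list covered 898 members (21.0%), with 650 in both lists, 248 in the CM list alone and 49 in the WT list alone. Over all 34625 WT CTCF peaks the H3K4me3 share went from 13.8 to 15.6% and the Pol2 share from 11.3 to 14.1%. Of the 4768 with a WT H3K4me3 peak, 4120 were in both lists, and 3509 of the 3905 with a WT Pol2 peak were. As shares of members, H3K4me3 was in both lists at 20.1%, in CM alone at 5.55% and in WT alone at 3.01%. Over all WT CTCF peaks these were 11.9, 3.68 and 1.87%. For Pol2 they were 15.2, 5.79 and 1.14% of members and 10.1, 4.01 and 1.14% of all. The CM H3K4me3 peaks were wider than those of WT (median 1598 against 728 bp) and fewer (20432 against 34347), and whether a mark changed at a given site cannot be read from 1 list per genotype.

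Because members were higher in WT than the other classes, the shares were also taken within the 4 classes of WT CTCF height. In classes 1 to 3, 5.71, 12.7 and 10.0% of the members had a WT H3K4me3 peak, against 59.2, 50.6 and 44.6% of the lost CTCF/BORIS peaks (adjusted exact p = 3.92e-10, 5.63e-24 and 7.44e-49). In the highest class, where most members lie, 27.4% of 3210 members and 31.2% of 199 lost CTCF/BORIS peaks had one. This difference of -3.8 percentage points did not pass the test (adjusted exact p = 0.276), and the Pol2 shares were 18.6 and 24.1% (adjusted exact p = 0.0744). Heights still differed within the highest class, where lost CTCF/BORIS peaks reached 2990 and members 4391. The promoter shares in that class, 31.9 and 47.7%, still differed (adjusted exact p = 1.04e-05), as did the shares with GC above the median, 79.0 and 98.5% (adjusted exact p = 2.01e-15), and those with a motif match, 74.1 and 50.3% (adjusted exact p = 6.64e-12). Against kept CTCF-only peaks, members of classes 2 to 4 had more H3K4me3 in each, with 12.7, 10.0 and 27.4% against 2.33, 3.18 and 6.99%.

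**Figure D4:**
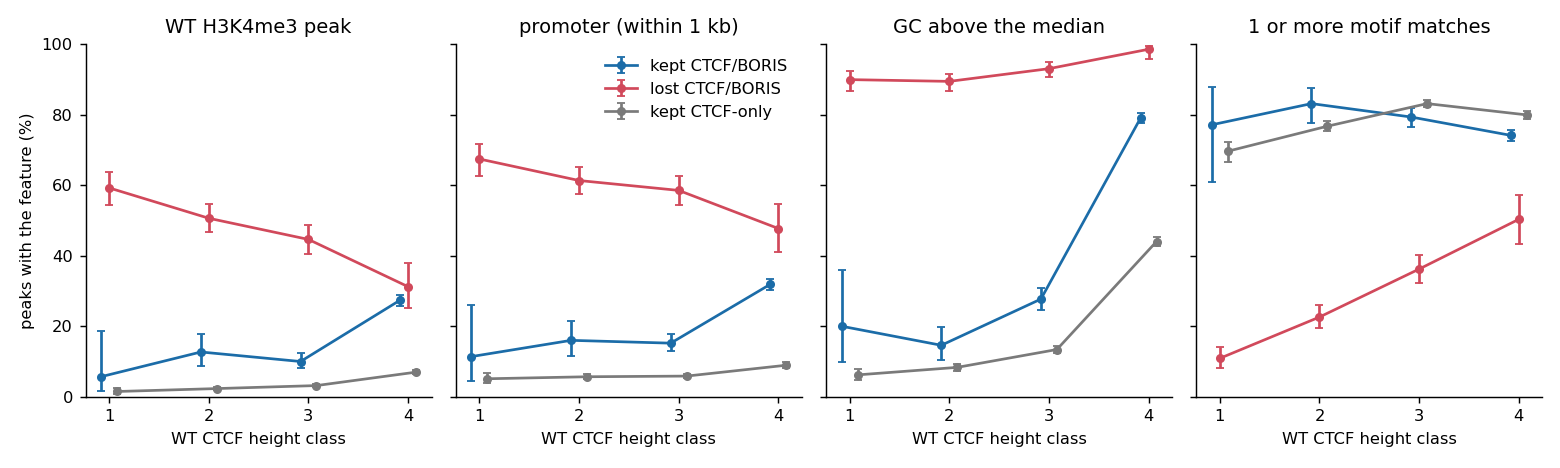
Share (%) of peaks with a WT H3K4me3 peak, at a promoter, with GC content above the median of all WT CTCF peaks and with 1 or more motif matches, by class of WT CTCF height (1 is the lowest), with Wilson 95% intervals. The gap in H3K4me3 between the members (blue) and the lost CTCF/BORIS peaks (red) narrows from the lower classes to the highest (27.4 and 31.2%), and the gap in motif matches narrows as well (to 74.1 and 50.3%).

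The motif was searched with a 19-bp matrix learned from the CTCF-only peaks, at a score that 2% of windows 2 kb from the peaks reach. Of the members, 3238 (75.6%, 74.3 to 76.8) held at least 1 match within 100 bp of the summit, against 27.2% of the lost CTCF/BORIS peaks (25.2 to 29.3, odds ratio 8.29, adjusted exact p = 1.33e-272). The difference had the same direction in all 4 height classes. At promoters 57.5% of the members and 16.7% of the lost CTCF/BORIS peaks held a match, and away from promoters 82.5 and 43.1%. The kept CTCF-only peaks held a match at 79.7% (odds ratio 0.786, adjusted exact p = 6.12e-09). That difference turned with the matrix: with 1 learned from the CTCF/BORIS peaks, 95.2% of the members and 88.5% of the kept CTCF-only peaks held a match. The members with no match at the main threshold, 1047 (24.4%), had a median GC content of 59.2% and a median CM height of 381, against 54.7% and 438 for members with 1 match.

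Members held 2 or more matches more often than either class. This was so at 131 members (3.06%, 2.58 to 3.62), 15 lost CTCF/BORIS peaks (0.838%, odds ratio 3.73, adjusted exact p = 3.21e-08) and 92 kept CTCF-only peaks (0.608%, odds ratio 5.16, adjusted exact p = 1.44e-32). Against the lost peaks the difference did not pass the test within any of the 4 height classes, where it was 2.86, 0.92, 0.74 and 1.39 percentage points. Of 65656 flanking windows, 0.0152% held 2 matches. The level depended on the score. At the scores that 1, 5, 10 and 20% of flanking windows reach, 0.817, 7.16, 13.3 and 25.8% of the members held 2 or more. With the matrix from the CTCF/BORIS peaks the share was 6.98%. At the 5 and 10% scores, 4.14 and 10.2% of the lost and 2.84 and 6.87% of the kept CTCF-only peaks did. Members exceeded these classes by 3.99 and 10.82 percentage points at the 20% score. The study, scanning a wider window at its most enriched peaks with another tool, found at least 2 motifs in most CTCF/BORIS regions. The 3.06% therefore holds for the main matrix and score only. In the 122 members with exactly 2, the matches lay a median of 56.0 bp apart, 30 to 70 bp apart in 90 (73.8%) and on the same strand in 95 (77.9%). In the 89 kept CTCF-only peaks with exactly 2, they were 30 to 70 bp apart in 37 (41.6%) and on the same strand in 58 (65.2%). Members with 2 or more matches had a median WT height of 2716 and a median CM height of 573, against 2335 and 438 for those with 1 match.

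The letters of the best match also differed between the kept classes, a pattern looked for after the sequences were seen and therefore given with no test. The form AGGNGGC in the core of the motif was found in 2045 of 3238 members with a match (63.2%) and in 30.0% of the 12075 kept CTCF-only peaks, and the form AGANGGC in 27.5 and 49.6%. The core was followed by G, as GGCG, in 64.7% of the members and 35.8% of the kept CTCF-only peaks, and by A, as GGCA, in 28.2 and 44.9%. Among peaks of the highest height class the shares of AGGNGGC were 65.4 and 33.4%, and that of the lost CTCF/BORIS peaks was 68.0%. Lost CTCF/BORIS peaks with a match, 486 in number, had AGGNGGC in 57.2% and GGCG in 54.9%. The *Ctcfl*, *Meg3* and *Peg3* sequences above carry the GGCG form, and the sites in *Sec22c* and near *Gapt* do not.

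The regions named by height show what the highest members are. The highest WT CTCF peak of the whole list (chr7:52689520-52690804, WT height 4391, BORIS 623, CM 863) lay at the promoters of *Gys1*, which encodes muscle glycogen synthase, and of *Ruvbl2*, a subunit of chromatin remodelling complexes. It held no match at the main threshold and 1 at the score that 5% of flanking windows reach, and it had H3K4me3 and Pol2 peaks in both genotypes. The next were at the promoter of *9430023L20Rik* (chr15:101113685-101115107, WT 4361, BORIS 1310, CM 847), at the promoter of *Dagla*, an enzyme of endocannabinoid synthesis (chr19:10378841-10379814, 4355, 739 and 818), and between genes near *Fmnl1* (chr11:103019830-103020973, 4343, 136 and 816). None of these 4 held a match at the main threshold.

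The intron of *Ksr2*, a scaffold of the MAP kinase pathway, held a site as high in WT as the last (chr5:117954121-117955926, WT height 4343) and, with 968, the highest CM CTCF height of the list, with a BORIS height of 398. The other members highest in CM were sites near *Nckap5l* (chr15:99245941-99247722, CM height 964), inside *Ctcfl* (957), on chromosome 12 (chr12:78881913-78882880, 940) and near *Mex3d* (chr10:79840077-79841428, 939). The site near *Mex3d* had a BORIS height of only 35, with 7.61% of the BORIS list below it. None of these 5 lay at a promoter or under an H3K4me3 or Pol2 peak of either genotype, and each held at least 1 motif match.

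The members highest in BORIS were different in place. *Rapgef1*, a guanine nucleotide exchange factor for Rap proteins, had the highest BORIS peak of the list at its promoter (chr2:29474719-29475575, BORIS height 2052, WT CTCF 3681, CM 763), with 3 matches on 1 strand. *Adprhl2*, a hydrolase that removes ADP-ribose (chr4:125998376-125999816, 2006, 4048 and 879), *Zbtb39*, a zinc finger protein (chr10:127176095-127177207, 1868, 2426 and 177), and *Kdm3b*, a histone H3 lysine 9 demethylase (chr18:34936224-34937669, 1653, 3999 and 806), were, like *Rapgef1*, at promoters with H3K4me3 in both genotypes. The site inside *Ctcfl* (1780) ranked between *Zbtb39* and *Kdm3b*. *Zbtb39* stood out by its CM height, at the 21.8th percentile of the CM list beside a BORIS height at the 100.0th percentile of its own.

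The gene lists were read for members inside their genes or at a start, without a comparison with other genes. Of 17 genes of CTCF, BORIS and cohesin, 5 had a member inside them or at a start. Those of the cohesin ring *Smc3*, its STAG subunits *Stag1* and *Stag2* and its regulator *Pds5b* lay at promoters with H3K4me3 and Pol2 in WT and CM. *Pds5b* (chr5:151475990-151477300) had heights of 3974 in WT, 983 for BORIS and 581 in CM, *Stag2* (chrX:39501929-39502752) 3367, 295 and 358, and *Stag1* (chr9:100543274-100544297) 2405, 481 and 263, the last with 2 matches on 1 strand. The fifth was the site inside *Ctcfl* itself.

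Imprinted genes, of which only the copy from 1 parent is expressed, had 6 members over 24 genes. The member at *Meg3*, a maternally expressed noncoding RNA (chr12:110780852-110781464), had heights of 3681, 252 and 680, and neither H3K4me3 nor Pol2 in either genotype. *Grb10*, an adaptor of growth factor receptors (chr11:11925480-11926968), had 3332, 258 and 270, the shared promoter of *Peg10* and *Sgce* (chr6:4696592-4698099) had 3040, 83 and 270, and *Peg3* (chr7:6679924-6680752) had 2371, 51 and 211. H3K4me3 and Pol2 peaks at the *Peg10* and *Peg3* sites were listed in CM and not in WT. *Kcnq1* and *Mest* had the other 2 members.

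Of 10 genes chosen from those that the study discusses, 3 had a member: *Ctcfl*, *Mfi2*, which encodes the iron-binding melanotransferrin (chr16:31878613-31879272, WT height 2613, BORIS 96, CM 219), and *Ankrd52*, a regulatory subunit of protein phosphatase 6 (chr10:127813687-127814728, 2156, 253 and 113, close to the limit of the CM list). The study describes CTCF and BORIS occupancy at the *Ankrd52* promoter as lost in CM. It also shows *Prss38*, whose member had a CM height of 192, among loci with lost CTCF binding. Kept means here only that a CM peak was listed. The CM heights at *Mfi2* and *Ankrd52* stood at the 31.6th and 3.54th percentiles of the CM list. Meiosis genes had 2 of 20, *Sycp2* of the synaptonemal complex (chr2:178141654-178142703, 2558, 380 and 374) and *Stra8*, which starts meiosis (chr6:34871918-34872445, 950, 1462 and 144). The *Stra8* site was one where the BORIS height stood at the 99.9th percentile of its list and the WT CTCF height at the 65.9th. Spermatid genes had 2 of 29, the transcription factor gene *Crem* (chr18:3337333-3338123, 3948, 232 and 756) and the kinase gene *Tssk6* (chr8:72425164-72425671, 1721, 140 and 150). None of the 7 X-linked loci with CTCF sites had a member. Chromosome X held 46 members of its 86 CTCF/BORIS peaks (53.5%), and on the autosomes the share ran from 66.2% on chromosome 7 to 77.1% on chromosome 16, as a description since the rule fixes it.

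Gene expression was compared for the genes with a member at the promoter. The 1187 members at promoters lay within 1 kb of a start of 1297 annotated genes, and 1137 of these were in the whole testis count table by symbol. Total counts ran from 10437683 to 42055813 in the 12 whole testis libraries, 3 for each genotype, and from 50861159 to 98545423 in the round spermatid libraries used, 3 of WT and 3 labelled CM. Levels are given as CPM, the count scaled to the library total after that total was adjusted by TMM. *Ctcf* was at 39.9 to 47.0 CPM in WT and 24.0 to 27.4 CPM in CM whole testis. It was at 22.3 to 30.2 CPM in CTCF HET and 31.8 to 38.4 CPM in BORIS KO. In round spermatids it was at 28.4 to 46.7 CPM in WT and at 38.5 to 166 in the libraries labelled CM. Of these only replicate 1 lay above the WT range and none lay below it, so the lower *Ctcf* that the label predicts was not seen. *Ctcfl* did go the way of the label, at 1.08 to 2.46 CPM against 2.72 to 4.96 in WT. The genotype of these libraries was not tested further, and they are called by their label. *Ctcfl* had 18 counts or fewer in each whole testis library.

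In CM whole testis the genes at members changed about as often as genes in general. Of 1047 tested, 154 (14.7%) were called higher, where 15.3% of all 16378 genes tested were, and 51 (4.87%) were called lower, where 5.90% of all were (edgeR's quasi-likelihood test, adjusted p < 0.05 and fold change > 2). The genes at lost CTCF/BORIS peaks had 14.0% higher and 4.11% lower, and those at kept CTCF-only peaks 22.3% higher and 5.95% lower. The median log2 fold change was 0.08 at members, 0.06 at lost CTCF/BORIS peaks, 0.20 at kept CTCF-only peaks and 0.00 over all genes tested. These calls depended on which library was left out. Without WT replicate 3, WT replicate 2 or CM replicate 3, 0, 1 and 0 of the genes at members were called, and 109 without WT replicate 1. Over all genes, 3468 were called with every library, 2764 without CM replicate 1 and 4383 without CM replicate 2. At an adjusted p threshold of 0.001 edgeR called 0, and DESeq2 at 0.05 called 234. In bulk RNA, fewer cells of a type and less RNA per cell cannot be told apart.

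The RNA levels of cell type markers differed between the WT and CM testis preparations, and cell numbers were not measured. The summed level of 6 Leydig cell markers was 344 to 582 CPM in WT and 1742 to 3399.7 in CM, with 4 of 6 called higher, and that of 6 measured Sertoli cell markers 60.2 to 97.7 and 119 to 248, with 4 called higher. Of 5 macrophage markers 4 (*Cd163*, *Cd68*, *Csf1r* and *Emr1*) were called higher. The sum of all 5, with the fifth not called, was 449 to 612 in WT and 336 to 455 in CM, so it did not follow the 4 called. Spermatogonium markers had a median sum of 48.3 CPM in WT and 210.4 CPM in CM (2 of 6 higher, *Kit* and *Zbtb16*). The study detected KIT in spermatocytes and round spermatids of CM testis as well. Spermatocyte markers summed to 1824 to 2564 and 1169 to 1904 (0 of 5 called), and round spermatid markers to 8451 to 14893 and 2719 to 8681 (1 of 6 lower). No marker was at 0 in all whole testis libraries of WT or CM. In sorted round spermatids, round spermatid markers summed to 863 to 1041 CPM in WT and 373 to 539 in the libraries labelled CM. There, spermatogonium markers summed to 20.7 to 27.6 and 32.8 to 338, and all 5 macrophage markers together to 81.9 to 93.0 and 21.8 to 53.9. Sertoli cell markers summed to 0.934 to 1.52 and 1.54 to 2.47, and the Leydig cell and spermatocyte sums overlapped. The part of these differences in the changes of the genes below was not tested.

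Among the 5 genes at members called higher with the smallest p were *Spock1*, *Ltbp1*, *Pdgfra* and *B3galtl*. *Spock1*, an extracellular proteoglycan, was at 0.560, 0.971 and 1.38 CPM in WT and at 26.6, 6.79 and 16.3 in CM, a log2 fold change of 4.11 ± 0.58 (SE, adjusted p = 0.0151 by edgeR's quasi-likelihood test). Its member (chr13:58008868-58010319) had heights of 3735 in WT, 307 for BORIS and 548 in CM. *Ltbp1*, which binds latent TGF-beta, rose from 11.3 to 12.2 CPM in the WT libraries to 30.6 to 54.3 in CM (log2 fold change 1.75 ± 0.26, edgeR adjusted p = 0.0151). *Pdgfra*, a growth factor receptor of mesenchymal cells, rose from 11.7 to 24.0 to 52.3 to 89.5 CPM (2.03 ± 0.31). For these 3 genes the WT and CM libraries did not overlap, and no H3K4me3 peak was listed at the *Spock1* and *Ltbp1* members in either genotype.

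*B3galtl*, a glucosyltransferase of the secretory pathway, was at 0.971 to 1.55 CPM in WT and 4.52 to 7.63 CPM in CM. BORIS KO libraries had 3.41 to 10.8 CPM and CTCF HET libraries 0.823 to 1.58 CPM. The change in CM was called (log2 fold change 2.31 ± 0.37, edgeR adjusted p = 0.0151). In BORIS KO the log2 fold change was 2.44 ± 0.47, which did not pass in edgeR (adjusted p = 0.16) and passed in DESeq2 (adjusted p = 1.40e-04) and in edgeR with the replicate number as a block (adjusted p = 0.00581). BORIS KO and CM both lay above WT without overlap. In round spermatids it was at 4.07 to 4.19 CPM in WT and at 9.37 to 14.2 in the libraries labelled CM (1.56 ± 0.29, edgeR adjusted p = 0.107). Its member (chr5:150480383-150481820) lay with its summit 39 bp from a start, had heights of 3816, 493 and 406 and 2 matches, and an H3K4me3 peak was listed there in CM and not in WT.

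The 5 called lower with the smallest p were *Mfi2*, *Phospho1*, *Prss41*, *4921507P07Rik* and *Prss38*. *Mfi2* was at 32.3, 20.8 and 24.5 CPM in WT and at 7.10, 9.29 and 6.15 in CM, and its level fell by 1.81 ± 0.28 on the log2 scale (edgeR adjusted p = 0.0151), with values of 12.3 to 20.4 CPM in BORIS KO and 17.0 to 23.0 in CTCF HET. *Phospho1*, a phosphatase of phosphocholine, fell from 392 to 559 CPM in WT to 128 to 194 in CM (log2 fold change -1.49 ± 0.25). *4921507P07Rik* fell from 587 to 631 to 221 to 275 CPM (-1.33 ± 0.23). *Prss38* and *Prss41* encode serine proteases, and *Prss38* fell from 5.76 to 7.87 to 2.02 to 2.41 CPM (-1.64 ± 0.28). In round spermatids *Phospho1* was at 0.378 CPM or less in every WT library and was not tested. There, edgeR did not call *Mfi2* (-0.55 ± 0.29, adjusted p = 0.323), *4921507P07Rik* (-1.15 ± 0.41, adjusted p = 0.188) or *Prss38* (-0.46 ± 0.43, adjusted p = 0.609).

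*Prss41* was low in CTCF HET as well as in CM. It was at 5.69, 3.11 and 4.04 CPM in WT, 3.59, 4.37 and 4.89 in BORIS KO, 1.52, 0.729 and 1.58 in CTCF HET and 1.08, 0.672 and 1.17 in CM. The change in CM was called (-2.17 ± 0.37, edgeR adjusted p = 0.0154). The one in CTCF HET was -1.74 ± 0.36 and did not pass (edgeR adjusted p = 1), and passed in the fit with the replicate number as a block (adjusted p = 0.00991). Its member lay 12 bp from the start (chr17:23979986-23981438, heights 3939, 303 and 451), with H3K4me3 listed in CM and not in WT.

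**Figure D5:**
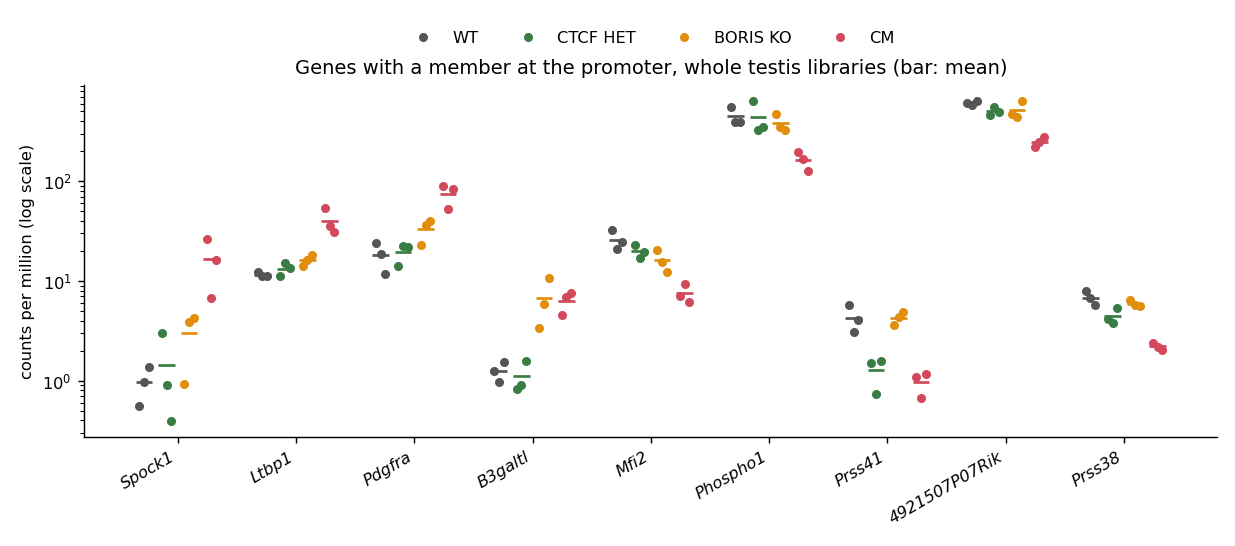
CPM on a log axis for 9 named genes with a member at the promoter, in each of the 3 whole testis libraries per genotype, with the mean as a bar. The CM libraries lie above the WT libraries for *Spock1*, *Ltbp1*, *Pdgfra* and *B3galtl* and below them for the other 5, BORIS KO lies with CM for *B3galtl*, and CTCF HET lies with CM for *Prss41*.

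Among the listed genes with a member at the promoter, *Meg3* rose from 4.87 to 5.93 CPM in WT to 14.9 to 42.4 in CM (log2 fold change 2.15 ± 0.42, edgeR adjusted p = 0.0165) and *Ankrd52* from 6.21 to 7.49 to 11.2 to 50.3 CPM (1.94 ± 0.48, edgeR adjusted p = 0.0241). *Peg10* had a log2 fold change of 0.90 ± 0.26 (edgeR adjusted p = 0.0357), under the fold threshold. The cohesin genes were not called: the log2 fold changes were -0.33 ± 0.21 for *Smc3*, 0.06 ± 0.21 for *Stag1*, 0.25 ± 0.24 for *Stag2* and 0.15 ± 0.23 for *Pds5b*. *Sycp2* (-0.16 ± 0.26), *Crem* (-0.87 ± 0.40) and *Tssk6* (-1.13 ± 0.71) were not called either. With the replicate number as a block *Tssk6* passed both thresholds (adjusted p = 0.0109), and it was at 219.8 CPM in WT replicate 1 against 33.4 in CM replicate 1, with CM below WT in all 3 pairs.

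In the other comparisons with WT, which share the WT libraries in whole testis, none of the genes at members was called by edgeR. In CTCF HET, 0 of 1034 were called where 0.00621% of all genes tested were, with 37 (3.58%, against 2.63% of all) at an unadjusted p under 0.05 and 0 called by DESeq2, which called 3 of all genes. In BORIS KO, 0 of 1040 were called where 0.0551% of all were, with 168 (16.2%, against 16.6% of all) at an unadjusted p under 0.05 and 12 called by DESeq2, which called 225 of all genes. With the replicate number as a block, 1 and 16 were called, of 18 and 273 over all genes. The block called *Spock1* (log2 fold change 1.70 ± 0.65, adjusted p = 0.0386) and *Meg3* (1.40 ± 0.36, adjusted p = 0.017) in BORIS KO. In round spermatids, 0 of 985 were called in the comparison with the libraries labelled CM where 0.00654% of all were, with 182 (18.5%, against 20.5% of all) at an unadjusted p under 0.05 and 85 called by DESeq2, which called 1387 of all genes. Without the library labelled CM replicate 1, which had the highest *Ctcf*, 45 of the genes at members were called, of 811 over all genes.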

How the data were processed

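For ChIP-seq, the authors used Bowtie2 and the mm9 genome, found peaks by MACS or MACS2 and divided CTCF and BORIS peaks with PeakSplitter. The deposited CTCF and BORIS lists give each peak's height, a signal of unstated normalization, and the deposited Pol2 and H3K4me3 lists a MACS score. The depth behind the peaks is unknown. The authors deposited raw counts per gene for RNA. Their counting tool and use of strand are not given in the sources used here.

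Peaks were overlapped from 1 bp and annotated with GENCODE and its genome of the same build. Members, gene lists and named regions were chosen with earlier results of these data known: the 5 highest members in each list, members at listed genes, and the 5 called genes of smallest p per direction, of which 1 is not reported here. Counts were filtered with filterByExpr, scaled by TMM and tested with edgeR 4.0.16 (DESeq2 1.42.0 as an alternative), genotype only. The scripts were tested on simulated data. Whole testis libraries are 3 independent preparations; for round spermatids separate animals are not stated, so their p-values may measure technical spread. In whole testis, same-numbered libraries deviated together (correlations 0.175 to 0.659), and in round spermatids they did not (0.01 to 0.098), so the numbers pair the former. The main calls and their p-values leave this pairing out. In CM whole testis they numbered 3468 genes, and the fit with the replicate number as a block called 4420.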

Additional observations from a re-analysis of the deposited data

Results flagged for a closer look

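For 2 genes with a member at the promoter every CM library moved one way in whole testis and every library labelled CM the other way in round spermatids. *Ltbp1* had a mean log2 difference from the WT mean of 1.71 in whole testis and -0.53 in round spermatids, where it was at 0.800 CPM or less in every library. *Spock1* had 3.38 in whole testis and -0.55 in round spermatids, where it was at 0 in all 3 libraries labelled CM and at 0.150 to 0.353 CPM in WT. The values are on the log2(CPM + 0.5) scale, and the difference between the preparations, which also differ in sorting, RNA selection and sequencing platform, was not tested.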

How the results depend on the processing

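Of the shares recomputed, 102 kept their direction and side of the threshold. Against kept CTCF-only peaks, the difference in 1 or more motif matches turned to 7.57 and 6.39 percentage points in height classes 1 and 2, to 0.02 at the score that 20% of flanking windows reach and to 6.71 with the matrix from CTCF/BORIS peaks, and was -0.45 and not significant at the 10% score. The 10 and 20% scores and that matrix were chosen after seeing the data. In height class 1, with 35 members, Pol2 turned to -3.8, and H3K4me3 (4.21), promoters (6.32) and 2 or more matches (2.36) lost significance, as did 2 or more matches in class 2 (0.93). Against lost peaks, significance was lost for 2 or more matches in classes 1 to 4 (2.86, 0.92, 0.74 and 1.39), and for H3K4me3 (-3.8) and Pol2 (-5.49) in class 4. The upper 50% of heights in each list left 1823 members. The cause of these changes was not tested.

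In CM whole testis, leaving out 1 library gave 3 to 4383 called genes and 0 to 273 at members, and an adjusted p threshold of 0.001 gave 0 and 0. With the replicate number as a block, 4420 and 255 were called. In CTCF HET, DESeq2 called 3 genes and the block 18, with 1 at members. In BORIS KO, the 0.001 threshold called 0, DESeq2 225 (12 at members), no low-count filter 20 and the block 273 (16 at members), and leaving out 1 library gave 0 to 44 and 0 to 3. In round spermatids, the 0.001 threshold called 0, DESeq2 1387 (85 at members) and the block 1, and leaving out 1 library gave 0 to 811 and 0 to 45. Peak lists have no replicates, so no depth or replicate limit can be set on them.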
